A study of Mus musculus with 2 samples.

Results

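The Notch pathway was described in thymic epithelial cells (TECs) by 8 of the 32285 genes that the deposited count tables list. They are the receptor genes Notch1, Notch2 and Notch3, the ligand genes Jag1 and Jag2, and the target or HES family genes Hes1, Hes6 and Hey1. The genes were taken by symbol and not by a cut on a measured value, but earlier results of these data were known when they were chosen. All 8 were detected, with 1264 UMIs (unique molecular identifiers, each standing for 1 captured transcript) for Notch3 and 27141 for Hes6 over the kept cells of both libraries.

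TECs of C57BL/6 female mice were profiled by droplet single-cell RNA-seq 15 days after a sublethal dose of 5.5 Gy given at 7 weeks of age, beside TECs of untreated mice. TECs were sorted as EPCAM+ cells that lacked CD45 and TER119, and each library pooled the cells of 3 mice. The labels give an age of 9 weeks for both groups, while their protocol text names mice of 4 weeks, and the chemistry version is 3 in the methods and 2 in the labels. There was 1 library per condition, so no difference between conditions has a replicate check, and condition cannot be told apart from library. Intervals given here cover counting error only.

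The deposit's sample labels name the 2 libraries the other way round from the names used here. The library called control here kept 3233 cells and the library called irradiated kept 5070 cells, and these are the cell numbers that the published text ties to those conditions. If the sample labels were right, every difference between the libraries given here would change its sign.

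Notch receptors are cut after a ligand of the Jagged or Delta-like type on a neighbouring cell binds them, and the freed intracellular part joins the DNA-binding protein RBPJ to switch on target genes such as Hes1 and Hey1. In the thymus the pathway is best known for T lineage commitment, which needs Delta-like 4 on cortical TECs (cTECs). Within the epithelium itself, Notch activity is known for a role in the medullary (mTEC) lineage of the fetal thymus.

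In the GRCm38 annotation, Notch1 lies at chr2:26457903-26516663, Notch2 at chr3:98013527-98150361 and Notch3 at chr17:32120820-32166852. Jag1 lies at chr2:137081456-137116644 and Jag2 at chr12:112907819-112929776. Hes1 lies at chr16:30064384-30067796, Hes6 at chr1:91411483-91414038 and Hey1 at chr3:8663359-8667256. Notch2 and Hes1 are on the plus strand and the other 6 genes on the minus strand. Promoter sequences of RefSeq (GRCm38.p6) were found for 6 of the 8 genes, in 7 windows, and were not found for Hes1 and Hey1. Stretches before the RefSeq start of Notch1 and of Jag1 are shown because these genes had their highest level in the same gated cells and varied together over the gates. The Notch1 stretch lies within the annotated gene, which begins further upstream in its longest form, and the Jag1 stretch lies outside annotated genes. The 124 bases of the Jag1 window nearest the start are left out, since they overlap an annotated UTR. Capitals mark the letters of HES factor sites on either strand, the N box CACNAG and the class C site CACGNG.
Notch1, chr2:26503823-26504072, minus strand: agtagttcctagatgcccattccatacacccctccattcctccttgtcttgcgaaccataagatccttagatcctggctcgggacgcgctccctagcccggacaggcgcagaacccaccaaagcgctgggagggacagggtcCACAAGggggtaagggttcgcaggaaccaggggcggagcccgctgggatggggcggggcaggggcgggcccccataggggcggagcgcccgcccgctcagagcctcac
Jag1, chr2:137116645-137116770, minus strand: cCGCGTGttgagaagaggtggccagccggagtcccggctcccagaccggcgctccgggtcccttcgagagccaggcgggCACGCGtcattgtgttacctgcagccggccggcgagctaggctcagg
The Notch1 stretch holds 1 N box and the Jag1 stretch 2 class C sites. The N box letters were in 36.7% and the class C letters in 23.5% of 32851 windows of 250 bases before a start over all genes. The core letters of the RBPJ site, TGGGAA on either strand, were in 21.6% of all windows and in 0 of the 7 windows of these genes. The palindrome CACGTG, which is 1 spelling of the class C site, was in 6.02% of all windows and also in 0 of the 7. A match of letters is a description of these windows and not a binding site.

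Cells were grouped by gates, which are cut-offs on the UMIs of marker genes per 10000 UMIs of the cell, and the 13 gates with at least 50 kept cells in each library held 7132 of the 8303 kept cells. Leading genes of a gate that also defined it, such as Psmb11, Prss16, Gnat3 and Gp2, had to stand high and are no check on it. Ccl25 in the cTEC-like gate, Rgs13 in the tuft-like gate and Ccl20 in the microfold-like gate led without being gate markers. Epcam had at least 1 UMI in 97.7% of control and 97.9% of irradiated cells. The median cell held 13412 UMIs in the control and 13003.5 in the irradiated library, and the medians of single gates spanned 10250.5 to 29362 UMIs for control cells and 9870 to 23410 for irradiated ones. Both libraries shared 17 cell barcodes. Gates are ranges on a scale and not fixed types, and 504 cells lay within 25% of the Aire-high cut that 1875 cells passed. By the same count, 91 cells lay near the keratinocyte cut (222 passed), 174 near the enterocyte cut (313 passed) and 82 near the microfold cut (151 passed). The S-phase cut had 315 cells near it and 746 passing. The tuft cut had 13 near it and 313 passing, and the Ccl21a cut 215 and 3233. Doublets were treated only by the upper limit on detected genes, with no doublet caller, and 216 kept cells passed more than 1 of the cTEC, tuft, Ccl21a and Aire-high cuts.

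The levels given next are UMIs of the gene per 10000 UMIs summed over the cells of a gate, and levels of different genes were not compared with each other. Notch1, Jag1 and Hes1 were highest in keratinocyte-like cells, Jag2 in Pdpn+ cells with low Ccl21a, Hey1 in cTEC-like cells and Notch2 in Ccl21a-high cells without Ccl11, in both libraries. Thus 6 of the 8 genes had the same highest gate in both libraries, beside 58.3% of the 12595 genes with at least 500 UMIs. Notch3 and Hes6 were the exceptions. For most neighbours in the order of gates the counting intervals overlapped in at least 1 library. Of 12 neighbouring pairs, the higher gate stood clear of the lower one in both libraries in 0 for each Notch receptor, in 3 for Jag1 and Jag2, in 1 for Hes1 and in 2 for Hes6 and Hey1.

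**Figure D1:**
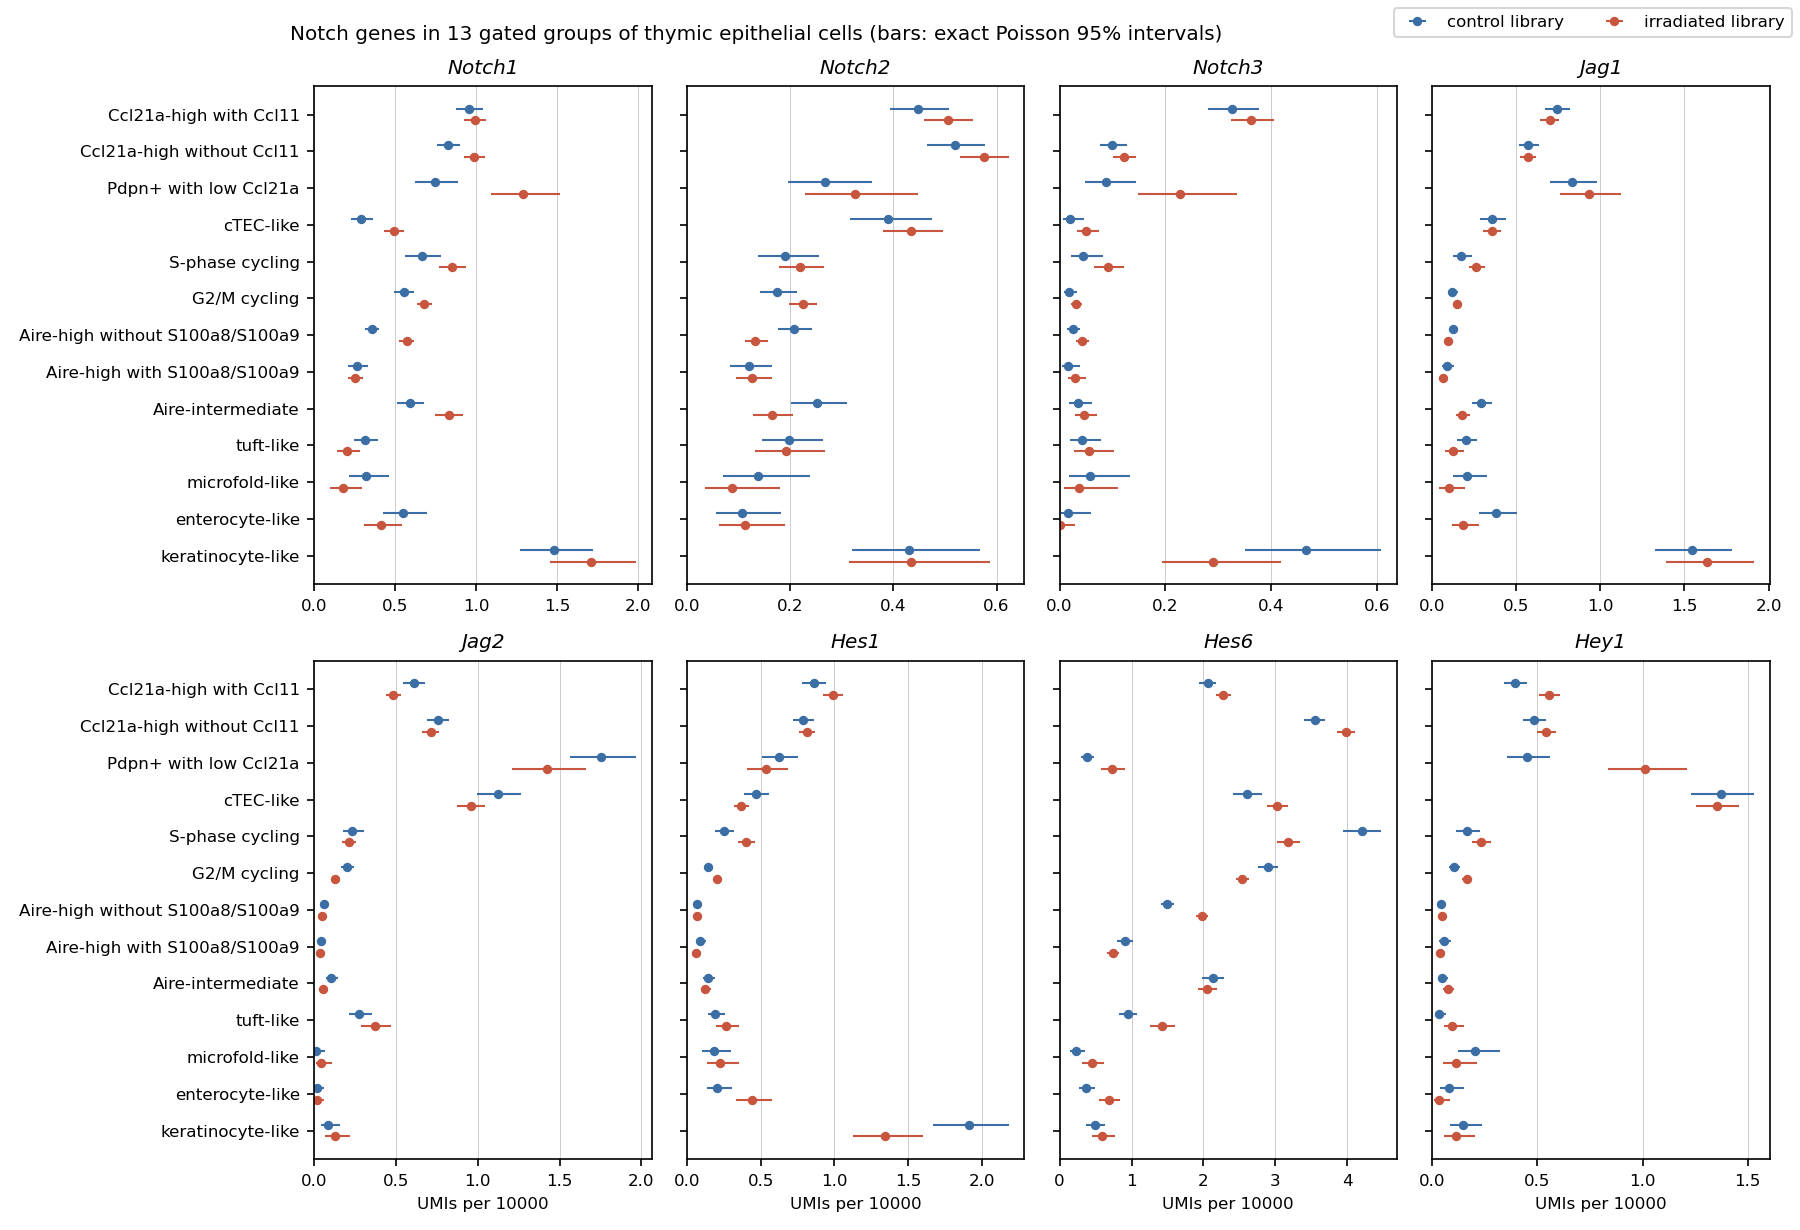
UMIs per 10000 of each of the 8 genes (horizontal axis, linear, a scale of its own for each gene) in 13 gated groups of TECs (vertical axis), with points for the control and the irradiated library and bars for exact Poisson 95% intervals. Notch1, Jag1 and Hes1 stand highest in keratinocyte-like cells, Jag2 in Pdpn+ cells with low Ccl21a (1.76 and 1.42) and Hey1 in cTEC-like cells (1.37 and 1.35).

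Of the leading genes of the keratinocyte-like gate, Spink5 and Krt10 are gate markers and Calm4 is not. In this gate 17 of the 76 control and 12 of the 74 irradiated cells also passed the enterocyte cut. The enterocyte markers summed to 131 and 63.8 UMIs per 10000 in the gate, of which 124 and 50 were Reg3g, against 165 and 195 in the enterocyte-like gate. In the 59 and 62 cells that did not pass the enterocyte cut, a split chosen after seeing the data, Notch1 was at 1.53 and 1.71, Jag1 at 1.66 and 1.75, and Hes1 at 2 and 1.2.

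Among the receptors, Notch1, which signals in T cell progenitors and in epidermis, was found in every gate. In keratinocyte-like cells, gated on keratinocyte genes such as Krt10 and Spink5, its level was 1.48 (95% Poisson interval 1.27 to 1.72) in the control and 1.71 (1.46 to 1.99) in the irradiated library. It was 0.957 and 0.991 in Ccl21a-high cells with Ccl11, and 0.825 and 0.988 in Ccl21a-high cells without Ccl11. In Pdpn+ cells with low Ccl21a it was 0.747 and 1.29, which was below both Ccl21a-high gates in the control library and above them in the irradiated one. The Ccl21a-high cells are mTECs that make the chemokine CCL21, which draws positively selected thymocytes into the medulla. The low end held the tuft-like gate at 0.314 and 0.202, the microfold-like gate at 0.319 and 0.175 and the Aire-high gate with S100a8/S100a9 at 0.265 and 0.249. Thus Notch1 was 5.6-fold higher in the highest than in the lowest gate of the control library and 9.76-fold higher in the irradiated library. The lowest gates differed, with Aire-high cells with S100a8/S100a9 (82 UMIs) lowest in the control library. In the irradiated library the lowest were microfold-like cells, with only 14 UMIs. After each cell was thinned to 4000 UMIs, 35.5% of control and 41.9% of irradiated keratinocyte-like cells held a Notch1 UMI, against 6.37% and 5.37% of tuft-like cells (unthinned, 65.8% and 67.6% against 24.8% and 18.1%). The median depths were 13381 and 11856.5 UMIs in keratinocyte-like cells, and 13421 and 10484 in tuft-like cells. Free RNA in droplets can give a UMI in a cell that does not express the gene, and the low share in tuft-like cells stands beside the high one for that reason.

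Notch2, a close relative of Notch1, was highest in Ccl21a-high cells without Ccl11, at 0.52 (0.465 to 0.578) for control and 0.575 (0.529 to 0.625) for irradiated cells. It was also seen in Ccl21a-high cells with Ccl11 (0.448 and 0.506), in keratinocyte-like cells (0.431 and 0.435) and in cTEC-like cells (0.39 and 0.435). In these 4 gates the counting intervals of the neighbours overlapped. The mimetic gates for microfold-like and enterocyte-like cells held 7 to 14 Notch2 UMIs per library, and their levels were 0.0876 to 0.137.

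Notch3, known best from vascular smooth muscle, was mainly in keratinocyte-like cells and in Ccl21a-high cells with Ccl11. Its level in keratinocyte-like cells was 0.465 (0.35 to 0.607) in control cells and 0.29 (0.193 to 0.419) in irradiated cells. In Ccl21a-high cells with Ccl11 it was 0.326 (0.28 to 0.378) and 0.362 (0.323 to 0.404), while in Ccl21a-high cells without Ccl11 it was 0.0996 (0.0767 to 0.127) and 0.121 (0.1 to 0.145). So Ccl11, which splits the Ccl21a-high cells, went with more Notch3, and the intervals of the 2 gates did not meet in either library. Pdpn+ cells with low Ccl21a held 0.0875 and 0.228, from 15 and 26 UMIs. In 9 gates Notch3 stayed under 0.1 in both libraries, and the irradiated enterocyte-like cells held 0 UMIs, which allows a level of up to 0.0297 by the Poisson interval.

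Of the ligands, Jag1, which encodes Jagged 1, was highest in keratinocyte-like cells, as Notch1 was. It stood at 1.54 (1.32 to 1.79) in control cells and 1.64 (1.39 to 1.91) in irradiated keratinocyte-like cells. Pdpn+ cells with low Ccl21a held 0.834 and 0.931, Ccl21a-high cells with Ccl11 0.743 and 0.698, and Ccl21a-high cells without Ccl11 0.572 and 0.567. Aire-high mTECs, which express the regulator of peripheral antigens, were at the low end. Aire-high cells with S100a8/S100a9 had levels of 0.0872 and 0.0622, so the fold between highest and lowest gate was 17.7 in control and 26.3 in irradiated cells. After thinning, 40.8% and 36.5% of keratinocyte-like cells held a Jag1 UMI, against 0.658% and 1.89% of the Aire-high cells with S100a8/S100a9, whose median depths were 19081.5 and 16523 UMIs (unthinned, 73.7% and 62.2% against 13.8% and 8.3%).

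Jag2, which encodes Jagged 2, had another order. The level was 1.76 (1.56 to 1.97) in control cells and 1.42 (1.21 to 1.66) in irradiated Pdpn+ cells with low Ccl21a, and 1.12 (0.997 to 1.26) and 0.955 (0.873 to 1.04) in cTEC-like cells. Ccl21a-high cells without Ccl11 followed at 0.755 and 0.711. In keratinocyte-like cells, where Jag1 was highest, Jag2 was at 0.0862 and 0.124, from 10 and 12 UMIs. The 2 ligands were thus highest in different gates, and each stood clear of the next gate below in both libraries. Microfold-like and enterocyte-like cells held 1 to 3 Jag2 UMIs per library.

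The Pdpn+ gate with low Ccl21a, highest for Jag2, was led by Serpinf1, Prelp and Prss23 over the other cells. Of the 4 fibroblast markers examined, Dcn was at 19.9 and 13.3 UMIs per 10000 in this gate. Pdgfra was at 0.146 and 0.0614, Pdgfrb at 0.0758 and 0, and Lum at 0.344 and 0.509 UMIs per 10000. Epcam had a UMI in 96.4% and 96.8% of these cells and Krt8 in 97.8% and 98.9%. The summed level of the 4 markers was 20.5 in control and 13.9 in irradiated cells of this gate and 0.241 to 2.94 in the other 12 gates, and its part in the levels of Jag2 and Jag1 was not tested.

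Among the targets, Hes1, a repressor and the classical Notch target, was highest in keratinocyte-like cells at 1.91 (1.67 to 2.18) in the control and 1.35 (1.12 to 1.6) in the irradiated library. Ccl21a-high cells with Ccl11 held 0.859 and 0.987, those without Ccl11 0.789 and 0.812, and Pdpn+ cells with low Ccl21a 0.624 and 0.535. In Aire-high cells without S100a8/S100a9, Hes1 was at 0.0711 (0.0536 to 0.0926) and 0.0701 (0.0551 to 0.0879). The lowest irradiated level was that of Aire-high cells with S100a8/S100a9, at 0.0622. Thus Hes1 was 26.9-fold higher in its highest than in its lowest gate of the control library and 21.6-fold higher in the irradiated library. After thinning, 48.7% and 33.8% of keratinocyte-like cells and 1.52% and 3.11% of Aire-high cells without S100a8/S100a9 held a Hes1 UMI (unthinned, 71.1% and 51.4% against 9.09% and 8.7%). The median depths in the Aire-high cells were 19280 and 16091.5 UMIs, above those of the keratinocyte-like cells.

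Hey1, a repressor related to Hes1, stood highest in cTEC-like cells at 1.37 (1.23 to 1.53) for control and 1.35 (1.25 to 1.46) for irradiated cells. Pdpn+ cells with low Ccl21a held 0.449 and 1.01, Ccl21a-high cells without Ccl11 0.482 and 0.542, and those with Ccl11 0.393 and 0.557. The Pdpn+ cells thus stood above both Ccl21a-high gates in the irradiated library and between them in the control library. In keratinocyte-like cells, where Hes1 was highest, Hey1 was at 0.146 (0.0853 to 0.235) and 0.114 (0.0569 to 0.204). Hes1 and Hey1, both known as Notch targets, were therefore highest in different gates. The highest gate of Hes1 was that of Jag1, and the highest gate of Hey1 was that of neither Jag1 nor Jag2. Dll4, given below, was highest in cTEC-like cells in both libraries, as Hey1 was. After thinning, 44.0% and 38.1% of cTEC-like cells held a Hey1 UMI and 0.637% and 2.01% of tuft-like cells did (unthinned, 70.9% and 77.7% against 3.82% and 7.38%). The cTEC-like cells had median depths of 17980 and 15298.5 UMIs.

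Hes6, a HES family member known to oppose HES1 in neural differentiation, was high in Ccl21a-high cells without Ccl11 and in cycling cells. It was at 3.55 (3.4 to 3.7) in control cells and 3.99 (3.86 to 4.11) in irradiated Ccl21a-high cells without Ccl11. In S-phase cycling cells it was at 4.2 (3.93 to 4.47) and 3.18 (3.02 to 3.34), so the highest gate differed between the libraries. The cTEC-like gate held 2.61 and 3.03, the G2/M cycling gate 2.89 and 2.54, and the Ccl21a-high gate with Ccl11 2.06 and 2.28. Hes6 was thus lower in the Ccl21a-high cells with Ccl11 than in those without, which is the reverse of Notch3. Microfold-like cells were lowest at 0.228 and 0.45.

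Over the 13 gates of both libraries (26 points that share library, depth and, within a library, the same pool of mice), the log2 levels of Jag1 and Hes1 had a Pearson correlation of 0.90, those of Jag2 and Hey1 0.84, those of Notch3 and Jag1 0.83 and those of Notch1 and Jag1 0.80. Hes6 was the least alike, with correlations of -0.14 with Jag1 and 0.41 with Notch2 as its lowest and highest. Of 12514 other genes with at least 500 UMIs, those most like each gene were Efna4 for Notch1 (0.83) and for Notch3 (0.88), Kremen1 for Notch2 (0.92), Dusp7 for Jag1 (0.94), Prxl2c for Jag2 (0.97), Perp for Hes1 (0.94), Bcl7a for Hes6 (0.92) and Mtss2 for Hey1 (0.95). The next in rank were Zfx (0.82) and Stn1 (0.80) for Notch1, Olfml2a (0.91) and Ppm1a (0.91) for Notch2, F3 (0.87) and Mill1 (0.87) for Notch3. For the ligands they were Sidt2 (0.94) and Ppp1r13l (0.93) for Jag1 and Man2a2 (0.96) and Ctf1 (0.96) for Jag2, and for the HES and HEY genes Oplah (0.93) and Cracr2b (0.93) for Hes1, Ccdc134 (0.91) and H2afy2 (0.88) for Hes6 and Frmd6 (0.95) and Sf3b6 (0.95) for Hey1. Efna4 encodes a membrane-bound ephrin ligand and Perp a protein of desmosomes. These values describe 26 dependent points and carry no test.

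The comparison of the libraries asks how TECs differed 15 days after irradiation. It is given as the log2 ratio of the irradiated over the control level, with 0.5 UMIs added to each count and a range from the opposite ends of both Poisson intervals. A ratio of at least 0.5 or at most -0.5 with at least 50 UMIs was counted as past the fold. Under the deposit's sample labels each ratio would have the opposite sign.

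In all kept cells, 0 of the 8 genes passed the fold in either direction, beside 3.1% of 18788 genes higher and 13.5% lower. The ratio was 0.40 for Hey1 (range 0.28 to 0.53), 0.27 for Notch1 (0.18 to 0.36), 0.29 for Notch3 (0.06 to 0.53) and 0.21 for Hes6 (0.16 to 0.26). It was -0.19 for Jag1 (-0.31 to -0.07) and -0.23 for Jag2 (-0.35 to -0.12). Notch2, at 0.08 (-0.05 to 0.21), and Hes1, at -0.02 (-0.13 to 0.10), did not differ beyond counting error. The median over all genes was -0.06. Within the 13 gates alone, giving the gates the same share of UMIs in both libraries moved the ratio of Hes6 from 0.20 to 0.07, that of Jag1 from -0.18 to -0.07, that of Hey1 from 0.38 to 0.28 and that of Notch3 from 0.22 to 0.29. The ratios of Notch1 (0.29 to 0.30), Notch2 (0.07 to 0.05), Jag2 (-0.25 to -0.23) and Hes1 (0.04 to 0.08) moved by less. No ratio changed its sign.

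Within the 13 gates, 82 of 104 pairs of gene and gate had at least 50 UMIs. Of these, 15 were past the fold as higher, beside 6.27% of all pairs of a gene and a gate, and 11 as lower, beside 8.5%. In 17 pairs the whole range lay above 0 and in 7 below 0, beside 5.91% and 6.47% of all pairs of a gene and a gate. Those shares take all pairs with at least 50 UMIs and are not matched for count, while a range narrows as the count grows. In the plot of ratios by gate, Notch1, Hes6 and Hey1 account for 15 of those 17 pairs. Among the 15 is Hes6 in cTEC-like cells, where cells split by the Ccl21a cut had opposite signs, as given below.

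Calls per gate were few. Neither Ccl21a-high gate had any, which for 8 genes is near the shares of all genes called there. Counts are given as higher and lower, each beside the share of all genes called in that gate and direction. In Ccl21a-high cells they were 0 and 0 of 8 with Ccl11 (background 3.13% and 6.43%) and 0 and 0 of 8 without Ccl11 (3.08% and 5.06%). Pdpn+ cells with low Ccl21a had 3 and 0 of 7 (7.12% and 7.8%), cTEC-like cells 1 and 0 of 7 (4.73% and 7.89%), S-phase cells 3 and 0 of 8 (7.24% and 6.13%) and G2/M cells 1 and 1 of 7 (5.47% and 4.45%). Cells at the Aire-high stage split by S100a8/S100a9 into 2 and 1 of 8 without (5.66% and 10.5%) and 0 and 1 of 5 with these genes (9.65% and 10.1%), while Aire-intermediate cells had 1 and 3 of 7 (6.58% and 10.9%). In the mimetic gates, which are mTECs that resemble cells of other tissues, few pairs could be counted. They were 1 and 2 of 6 in tuft-like (5.41% and 8.54%), 1 and 0 of 1 in microfold-like (9.07% and 12.8%), 2 and 1 of 4 in enterocyte-like (9.53% and 10.6%) and 0 and 2 of 6 in keratinocyte-like cells (9.4% and 14.5%). Among the cells of no gate, 2 of 8 were higher and 0 lower (5.95% and 7.93%), and these were Notch3 at 1.06 (0.37 to 1.78) and Hey1 at 0.78 (0.41 to 1.17). The summed fibroblast markers of the cells of no gate were at 9.32 in control and 5.19 in irradiated cells. Their summed endothelial markers were at 0.441 and 0.0969, and the part of these markers in both ratios was not tested.

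**Figure D2:**
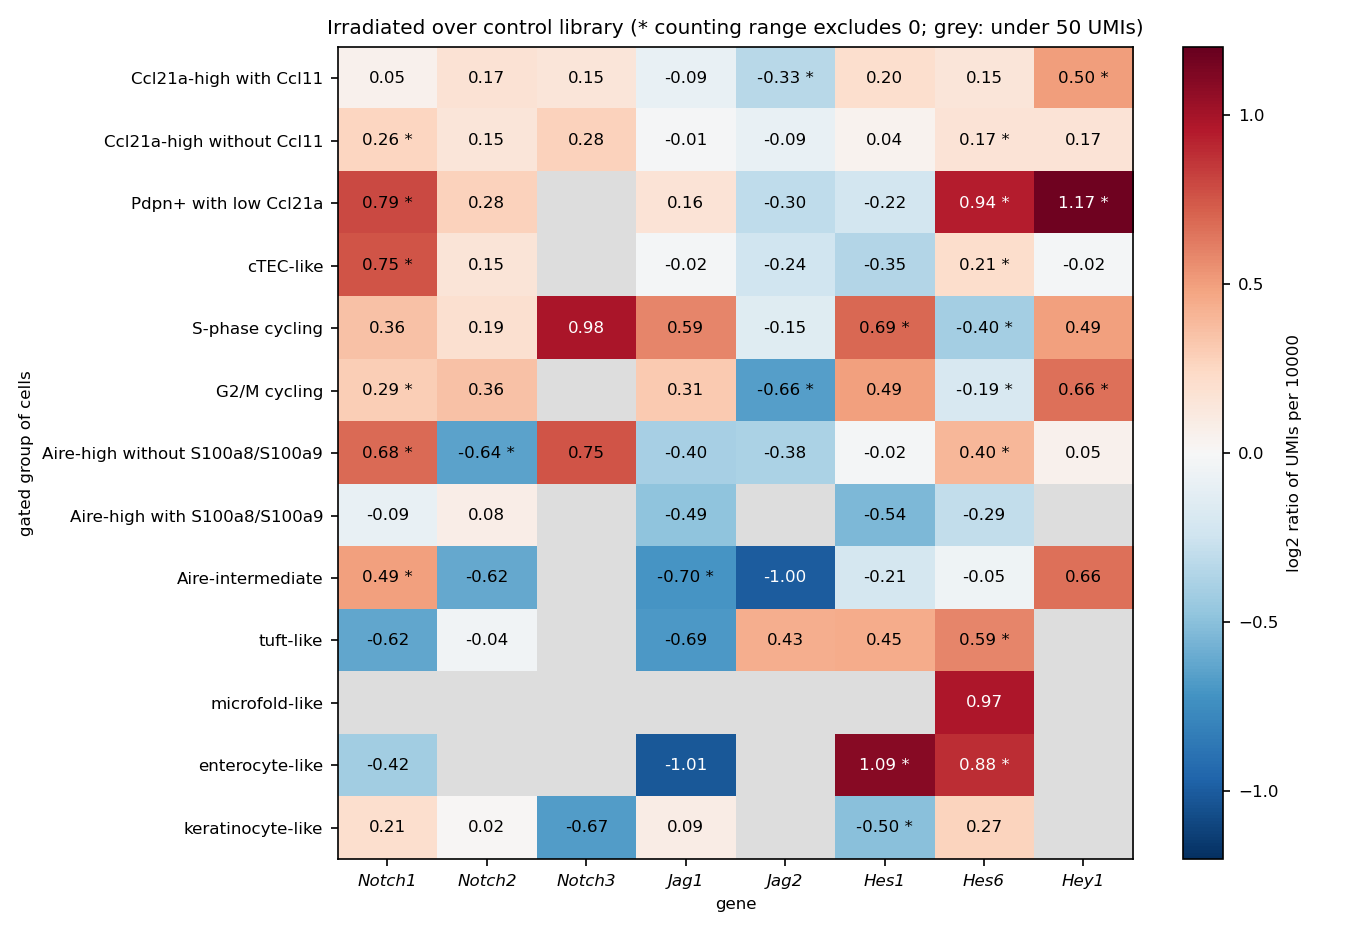
Log2 ratio of the irradiated over the control level (colour and printed value) for the 8 genes (columns) in 13 gated groups of TECs (rows). A star marks a range that excludes 0 and grey a pair with under 50 UMIs. Stars on positive values are most frequent for Notch1 and Hes6 (6 gates each), and the most positive value is that of Hey1 in Pdpn+ cells with low Ccl21a (1.17).

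Notch1 was higher in the irradiated library beyond counting error in 6 of the 12 gates where it was counted and lower in 0. In Aire-high cells without S100a8/S100a9 its level was 0.356 from 275 UMIs in control and 0.57 from 610 UMIs in irradiated cells, a ratio of 0.68 (0.39 to 0.97). In this gate 5.66% of all genes were past the fold as higher. In cTEC-like cells the level went from 0.289 to 0.489, a ratio of 0.75 (0.24 to 1.29, background 4.73%), and in Pdpn+ cells with low Ccl21a from 0.747 to 1.29, a ratio of 0.79 (0.30 to 1.28, background 7.12%). These 3 gates passed the fold. Aire-intermediate cells (0.49, 0.15 to 0.85), G2/M cycling cells (0.29, 0.03 to 0.56) and Ccl21a-high cells without Ccl11 (0.26, 0.05 to 0.48) had ranges above 0 without passing the fold. In the G2/M cells that did not pass the Ccl21a cut the ratio was 0.13 (-0.16 to 0.42), as given below. Tuft-like cells had -0.62 (-1.48 to 0.19), past the fold as lower with a range that included 0. Leaving out the cell with the most Notch1 UMIs in each library gave 0.71, 0.85 and 0.76 in the first 3 gates. The summed thymocyte markers, of a cell type that carries Notch1, were at 0.3 in control and 0.214 in irradiated Aire-high cells without S100a8/S100a9, at 0.333 and 0.101 in cTEC-like cells, and at 0.0875 and 0.14 in Pdpn+ cells with low Ccl21a. Leaving out the cells with any thymocyte marker UMI gave Notch1 ratios of 0.64, 0.74 and 0.83 in these gates. Krt5 was at 0.725 in control and 1.5 in irradiated Aire-high cells without S100a8/S100a9, and at 4.55 and 7.3 in cTEC-like cells. Ccl21a was at 2.18 and 3.12 in the first of these gates and at 19 and 22.7 in the second. The part of these markers in the Notch1 ratios was not tested.

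Notch2 did not share this. In Aire-high cells without S100a8/S100a9 it was lower in the irradiated library, at 0.133 from 142 UMIs against 0.207 from 160 UMIs, a ratio of -0.64 (-1.11 to -0.17, background 10.5%). Aire-intermediate cells had -0.62 (-1.27 to 0.03). The same Aire-high cells thus held more Notch1 and less Notch2 in the irradiated library, and both ranges excluded 0. For Notch3 only 5 gates had at least 50 UMIs, and all of their ranges included 0. The lowest ratio was -0.67 (-1.66 to 0.26) in keratinocyte-like cells and the highest 0.98 (-0.31 to 2.52) in S-phase cells.

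Where a range of a ligand excluded 0, the level was lower in the irradiated library. Jag1 in Aire-intermediate cells was at 0.293 from 100 UMIs in control and 0.18 from 81 in irradiated cells, a ratio of -0.70 (-1.32 to -0.09, background 10.9%). That range no longer excluded 0 once the top cell of each library was left out (-0.60), and the ratio was 0.31 with all gate cuts halved. In keratinocyte-like cells, where Jag1 was highest, the ratio was 0.09 (-0.36 to 0.53). Jag2 was below 0 in 8 of the 9 gates where it was counted, with a median of -0.30, but gates of the same 2 libraries are not independent. How many of all genes had such signs was not counted. The range of Jag2 excluded 0 in Ccl21a-high cells with Ccl11 (-0.33, -0.63 to -0.04) and in G2/M cycling cells (-0.66, -1.17 to -0.15, background 4.45%). It did not in Pdpn+ cells with low Ccl21a (-0.30, -0.70 to 0.09) or in cTEC-like cells (-0.24, -0.54 to 0.07).

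Hey1 had its ratio of 1.17 (0.57 to 1.77) in Pdpn+ cells with low Ccl21a, from 77 UMIs in 139 control and 115 UMIs in 93 irradiated cells, which was the highest ratio of the 82 pairs. The value without the top cells was 1.12. In the same gate the summed fibroblast markers, mostly Dcn, were at 20.5 in control and 13.9 in irradiated cells, with Lum alone among the 4 higher in the irradiated library. Krt5 was at 4.02 in control and 7.07 in irradiated cells of this gate, and Ccl21a at 1.11 and 2.77. The part of these markers in the ratios of the gate was not tested. In G2/M cycling cells the Hey1 ratio was 0.66 (0.09 to 1.27, background 5.47%), past the fold, and these cells are split by the Ccl21a cut below. Aire-intermediate cells also passed the fold, at 0.66 (-0.54 to 1.98), with a range that included 0. Hey1 was also higher in Ccl21a-high cells with Ccl11, at 0.557 against 0.393, a ratio of 0.50 (0.18 to 0.83) that fell just short of the fold. In cTEC-like cells, where Hey1 was highest, the ratio was -0.02 (-0.28 to 0.24).

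Hes1 differed in sign between gates. In keratinocyte-like cells it was lower in the irradiated library, with 130 UMIs in 74 cells against 222 UMIs in 76 cells, a ratio of -0.50 (-0.96 to -0.06, background 14.5%). The summed keratinocyte markers of this gate were at 78.9 in control and 53.2 in irradiated cells and its enterocyte markers at 131 and 63.8, and their part in the Hes1 value was not tested. Without the cells that also passed the enterocyte cut, the Hes1 ratio was -0.73 (-1.26 to -0.22). In enterocyte-like cells Hes1 was higher, with 55 UMIs in 90 cells against 25 UMIs in 66 cells, a ratio of 1.09 (0.14 to 2.12, background 9.53%). Only 12 control and 22 irradiated cells held these UMIs, and without the top cell of each library the ratio was 1.30 (0.21 to 2.49). The summed enterocyte markers of this gate were at 165 in control and 195 in irradiated cells, and their part was not tested. In both Ccl21a-high gates, which held the most Hes1 UMIs, the ratios were 0.20 (-0.03 to 0.43) and 0.04 (-0.18 to 0.27). S-phase cycling cells had 0.69 (0.11 to 1.31).

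Hes6 was higher beyond counting error in 6 gates and lower in 2. The ratio was 0.94 (0.26 to 1.63) in Pdpn+ cells with low Ccl21a, 0.88 (0.14 to 1.65) in enterocyte-like cells and 0.59 (0.22 to 0.96) in tuft-like cells, each past the fold. Without the top cells the range of the enterocyte-like gate included 0 (0.74, -0.08 to 1.59). In Aire-high cells without S100a8/S100a9 it was 0.40 (0.25 to 0.55), from 1159 and 2115 UMIs. The cTEC-like gate, also among the 6, had 0.21 (0.03 to 0.40), but its cells split by the Ccl21a cut had opposite signs, as given below. Microfold-like cells, the fourth gate past the fold, had 0.97 (-0.16 to 2.16). The 2 cycling gates went the other way, at -0.40 (-0.57 to -0.24) in S phase and -0.19 (-0.31 to -0.06) in G2/M.

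The cTEC-like and cycling gates held cells that also passed the Ccl21a cut, and these were split after the data had been seen. They were 18.7% of control and 30.3% of irradiated cTEC-like cells, 31% and 43.4% of S-phase cells, and 12.8% and 17.1% of G2/M cells. In cTEC-like cells, Hes6 was at 4.67 in control and 7.19 in irradiated cells that passed the Ccl21a cut (ratio 0.62, 0.33 to 0.92), and at 2.18 and 1.35 in those that did not (-0.69, -0.95 to -0.42). The ratio of 0.21 in the whole gate thus stood for 2 groups of cells with opposite signs. Hey1 was at 1.21 and 1.15 in the first group and at 1.41 and 1.43 in the second, and Notch1 had a ratio of 0.88 (0.31 to 1.49) in the second group. Among S-phase cells, Hes1 was at 0.76 and 0.87 in those that passed the Ccl21a cut and at 0.0821 and 0.119 in those that did not. Within these groups the Hes1 ratios were 0.18 (-0.48 to 0.89) and 0.50 (-0.74 to 1.88), and neither range excluded 0. Hes6 in S phase was lower in the irradiated library in both groups, at -0.51 (-0.86 to -0.15) and -0.28 (-0.47 to -0.09). In G2/M cells that passed the Ccl21a cut, of which the control library had 24, Notch1 had a ratio of 1.06 (0.38 to 1.83) and Hey1 of 1.43 (0.40 to 2.68), against 0.13 (-0.16 to 0.42) and 0.13 (-0.58 to 0.88) in the other G2/M cells. Jag1 and Hey1 in cycling cells were likewise higher in cells that passed the Ccl21a cut, in each library and phase.

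**Figure D3:**
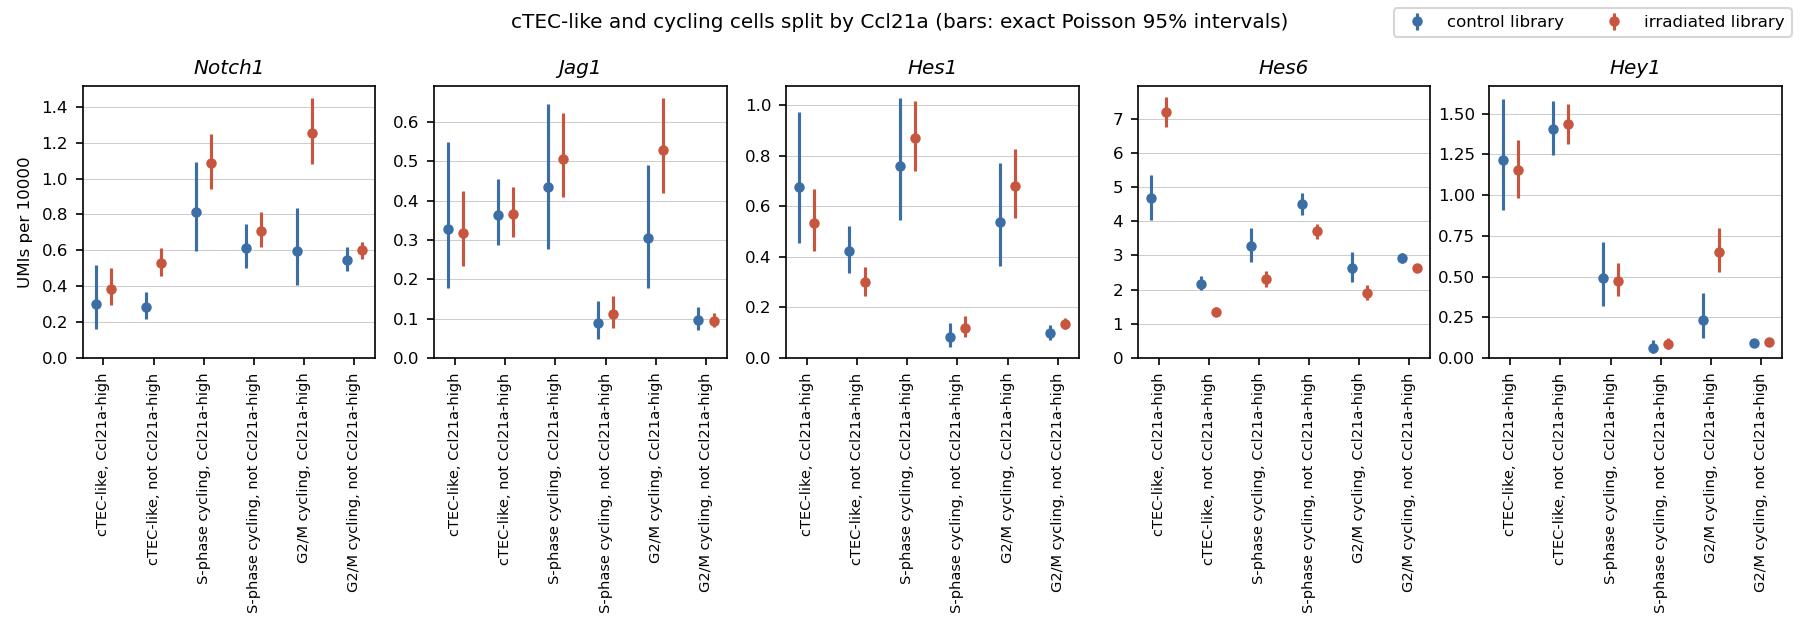
UMIs per 10000 (vertical axis, linear from 0) of 5 genes in cTEC-like, S-phase and G2/M cells that did or did not pass the Ccl21a cut (horizontal axis), with points for each library and bars for exact Poisson 95% intervals. Hes6 goes up from 4.67 to 7.19 in cTEC-like cells that passed the cut and down from 2.18 to 1.35 in those that did not, and Hes1 in S-phase cells that did not pass it sits at 0.0821 and 0.119.

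The rest of the pathway was followed by 56 genes for ligands, processing enzymes, the nuclear complex, inhibitors and targets, all of them in the count tables. In all kept cells 0 of them passed the fold as higher and 8 as lower (Aph1c, Dlk2, Dner, Hes3, Hes5, Lfng, Neurl1a and Neurl3), beside the 3.1% and 13.5% of all genes. Their median ratio was -0.09. Over the gates, 29 of 445 counted pairs were higher and 44 lower, which is 6.52% and 9.89% beside 6.27% and 8.5% of all pairs, so these shares were near the background.

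Among the other ligands, Dll4, the ligand that thymocytes need for T lineage commitment, was highest in cTEC-like cells at 0.743 and 0.684, with a ratio of -0.12 (-0.48 to 0.25). Dll1 and Dlk2 were highest in Pdpn+ cells with low Ccl21a, like Jag2. There Dll1 was at 0.589 and 0.281 (ratio -1.05, -1.90 to -0.28) and Dlk2 at 0.84 and 0.474 (-0.82, -1.47 to -0.20). In this gate 7.8% of all genes were past the fold as lower, the range of Jag2 included 0 as given above, and Jag1 had a ratio of 0.16 (-0.37 to 0.68).

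Keratinocyte-like cells, highest for Notch1, Jag1 and Hes1, were also highest for Adam10 (2.09 and 1.83) and Adam17 (0.991 and 1.03), which encode proteases that cut the receptors outside the cell. The feedback inhibitor Nrarp (1.09 and 1.11) and Gata3 (0.818 and 0.808) had their highest level in these cells too. Nrarp was higher in irradiated Ccl21a-high cells with Ccl11, at 0.293 against 0.179 (ratio 0.70, 0.24 to 1.18, background 3.13%), the gate where Hey1 had a ratio of 0.50. Heyl, a relative of Hey1, was at 0.281 and 0.333 in these cells. In this gate the members Hes1, Hes6 and Hey1 had ratios of 0.20, 0.15 and 0.50, and the ranges of Hes1 and Hes6 included 0. The median ratio was -0.03 for the 2 HES and HEY genes counted beside the members. It was -0.08 for the 5 other target genes counted, Nrarp included, and -0.01 over all genes. Rbpj itself was highest in microfold-like cells, at 1.76 and 1.86. The gate with the most Itch, a ubiquitin ligase, was the tuft-like gate, where it was at 1.97 in control and 0.747 in irradiated cells (ratio -1.40, -1.79 to -1.02).

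**Figure D4:**
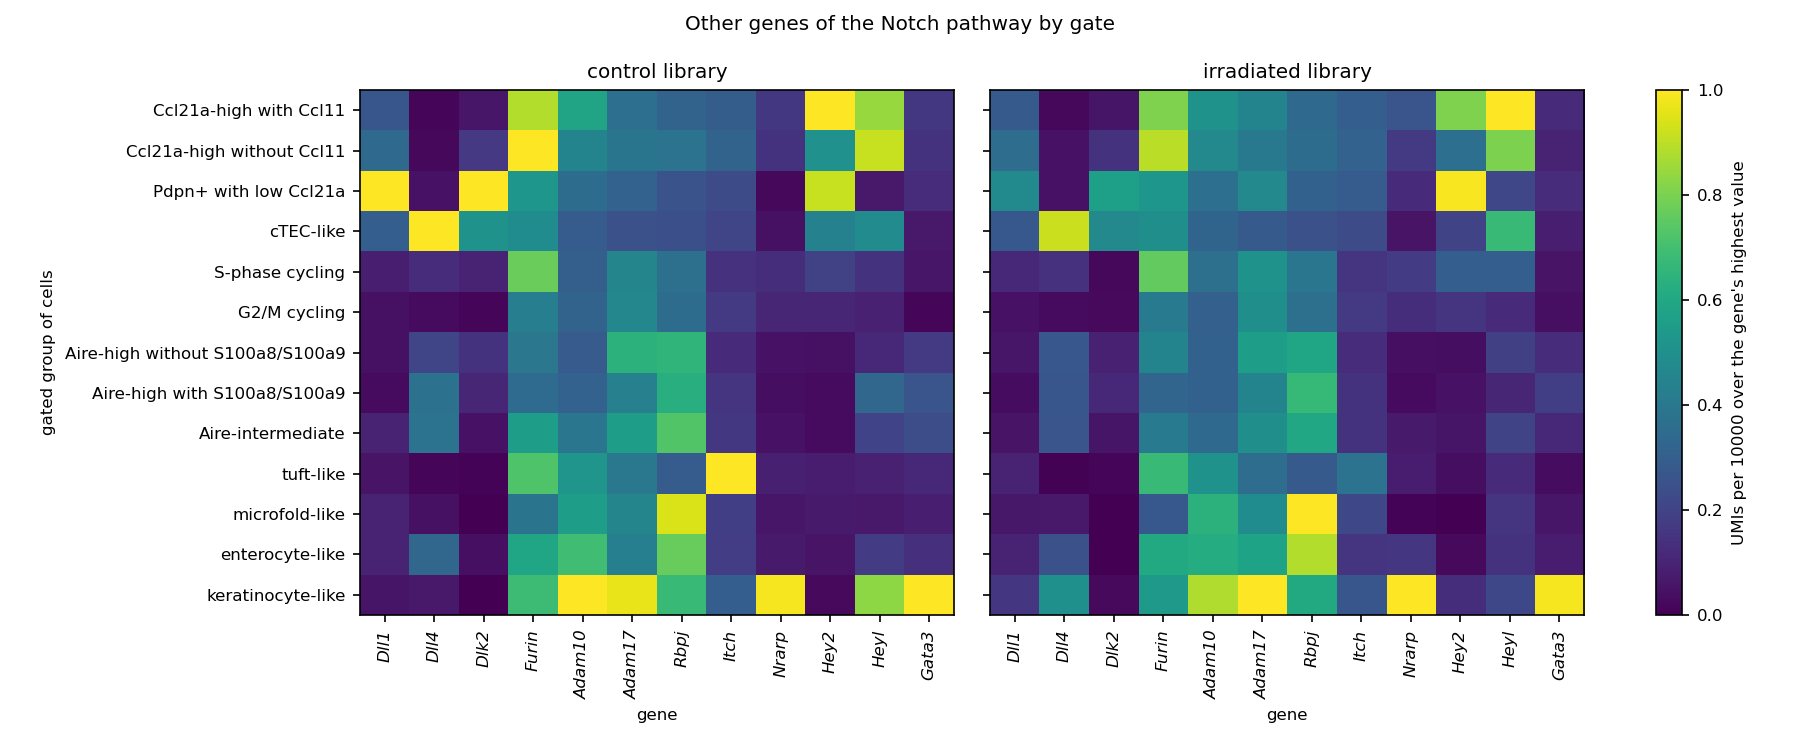
Levels of 12 other Notch pathway genes (columns) in 13 gated groups (rows) of the control (left) and irradiated library (right), as UMIs per 10000 divided by the highest value of the gene over both libraries (colour, 0 to 1). Dll4 peaks in cTEC-like cells (0.743 and 0.684), Dll1 and Dlk2 in Pdpn+ cells with low Ccl21a, and Adam10, Adam17, Nrarp and Gata3 in keratinocyte-like cells.

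Cells of the cTEC gate that also passed the cut for thymocyte RNA, 25 in control and 86 in irradiated cells, were kept apart. Rag1, Rag2 and Cd8b1, among their leading genes, are on the list of thymocyte markers that set them apart. Hey1 was at 1.75 and 1.35 there and Jag2 at 1.33 and 0.976, levels close to those of the cTEC-like gate. Hes6 was at 0.811 and 1.04 against 2.61 and 3.03. The cTEC-like cells lay below the thymocyte cut, but 30.6% of control and 13.5% of irradiated ones held a thymocyte marker UMI. The Ccl21a cut was passed by 8% and 3.49% of the cells with thymocyte RNA, against 18.7% and 30.3% of the cTEC-like cells. In cTEC-like cells that did not pass it, Hes6 was at 2.18 and 1.35. Of 7 genes counted, 0 were higher and 1 lower (background 6.78% and 7.73%). Hes1 had a ratio of -1.81 (-2.62 to -1.02) in these cells, but 34 of the 60 control UMIs came from 1 cell. Without the top cell of each library the ratio was -0.75 (-1.74 to 0.30). In the 13 gates the summed thymocyte markers were at 0.0524 to 0.349 per 10000, against 16.6 to 26.3 in the gates with thymocyte RNA. The summed endothelial markers were at 0.0125 to 0.276, and those of other leukocytes at 0.143 to 9.83, highest in microfold-like and Aire-high cells. That sum was mostly Lyz2, at 9.79 and 9.41 in microfold-like cells and 9.18 and 8.08 in Aire-high cells with S100a8/S100a9. Ptprc, which encodes CD45, was at 0.0114 and 0.025, and 0.107 and 0.00889, in these gates. Among the 13 gates it was highest in tuft-like cells, at 0.55 and 0.663.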

How the data were processed

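The authors deposited raw UMI counts per gene and barcode from Cell Ranger (5.0.1 in the matrix headers, 5.1 in the submitters' processing notes), 1 matrix per library, for 4937 and 7167 barcodes that held 58185309 and 82201657 UMIs. Genes found in under 5 barcodes were left out of the count of detected genes. Barcodes with more than 2000 and fewer than 7500 genes and under 15% mitochondrial UMIs were kept (65.5% and 70.7%). Cells were gated in a fixed order on marker UMIs per 10000, and a cell that passed several cuts was given to 1 gate by that order. Levels are summed UMIs with exact Poisson 95% intervals, and shares of cells have exact Clopper-Pearson intervals after thinning to 4000 UMIs. With 1 library per condition no test was run. The genes, gates and gene lists were chosen with earlier results of these data known. All 8 genes are named by rule, with pathway genes by counts and values, together with the 3 genes most like each of them over the gates. The ratios and calls were tested on simulated Poisson counts, which cannot check the ranges where UMIs gather in single cells. In these simulated counts 2.78% to 8.49% of the unchanged genes of a gate were past the fold. Python 3.11.15, numpy 2.4.6, scipy 1.17.1 and pandas 2.3.3 were used. Alternatives were limits on genes and mitochondrial share, gate cuts, denominators and cells left out.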

Additional observations from a re-analysis of the deposited data

Results flagged for a closer look

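Hes1 and Hes6 differed between the libraries in opposite directions in different gates, each beyond counting error, and the difference between gates was not tested. For Hes1 the log2 ratio of irradiated over control was 1.09 in enterocyte-like and -0.50 in keratinocyte-like cells. For Hes6 it was 0.94 in Pdpn+ cells with low Ccl21a and -0.40 in S-phase cycling cells. Within the cTEC-like gate, Hes6 had a ratio of 0.62 in cells that passed the Ccl21a cut and -0.69 in cells that did not. Each sign would turn under the deposit's sample labels.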

How the results depend on the processing

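No paired analysis was possible because each condition had 1 library. The number of pairs of gene and gate past the fold, 15 higher and 11 lower, went to 14 and 5 with doubled gate cuts, to 2 and 1 with a fold of 1 on the log2 scale, to 8 and 3 with cells thinned to 4000 UMIs, where 49 pairs were left, and to 22 and 19 with no minimum beyond 1 UMI. The share of member pairs called higher, 18.3% beside 6.27% of all pairs, was 21.2% beside 20.5% with no minimum, and 2.44% beside 1.52% with the fold of 1, so the gap to the background was small there. With doubled cuts the share was 19.4% beside 6.63%, and with thinned cells 16.3% beside 7.08%. The share called lower was 13.4% beside 8.5% in the main setting. With doubled cuts it was 6.94% beside 8.48% and with thinned cells 6.12% beside 7.86%. It was 9.64% beside 8.87% with halved cuts, 18.3% beside 23.5% with no minimum and 1.22% beside 2.1% with the fold of 1. Lower calls thus had no clear excess over the background under these settings, and stayed above it under the others. For the 56 other pathway genes, 29 higher and 44 lower became 4 and 8 with the fold of 1 and 106 and 126 with no minimum, the last being 15.2% and 18.1% beside 20.5% and 23.5% of all pairs. Hes1 in Aire-high cells with S100a8/S100a9 turned from -0.54 to 0.19 under 10% mitochondrial UMIs and to 0.65 with doubled cuts, and Jag1 in Aire-intermediate cells from -0.70 to 0.31 with halved cuts. The causes were not tested. The highest gate of each member stayed as reported under the 10 of 13 alternatives that recompute levels, except that of Hes6 in the control library, which was Ccl21a-high without Ccl11 with halved cuts. The alternatives that left out cells passing more than 1 gate or the top cell, and the splits by Ccl21a and by the enterocyte cut, were chosen after seeing the data. Notch3 was limited by depth, with 5 gates of at least 50 UMIs.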
